A study of Mus musculus with 24 samples.

Results

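A set of 10 genes that mark the formation of blood and endothelium, out of the 25965 entries of the table, were followed through 4 days of mouse embryonic stem cell (mESC) differentiation: *Kdr*, *Etv2*, *Tal1*, *Lmo2*, *Gata1*, *Gata2*, *Runx1*, *Pecam1*, *Cdh5* and *Cd34*. They were chosen by gene symbol, and all 10 were found in the table. All cells were male, from C57/Bl6 mESC lines kept in 2i medium and then moved to a serum-containing medium in which they differentiate without direction towards a lineage. At day 2 they were transduced with a retrovirus carrying a short hairpin RNA, puromycin selection began on day 3, and RNA was harvested on days 4, 5, 6 and 7. The control cells carried a nonsilencing hairpin (Nons), a pair of hairpins lowered *Smarcc1* (Smarcc1.6 and Smarcc1.7), and another pair lowered *Smarca4* (Smarca4.4 and Smarca4.6). The genotype label of the Smarca4 libraries names a Smarcc knockdown, and their titles were followed. Each hairpin gave 1 library per day, so that 8 *Smarcc1* knockdown, 8 *Smarca4* knockdown and 4 Nons libraries were compared. A second Nons series of 4 libraries was not analysed here, and every difference from Nons rests on 1 Nons library per day.

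*Smarcc1* and *Smarca4* encode a core subunit and an ATPase of the BAF complex, which moves nucleosomes. During gastrulation a part of the mesoderm switches on the VEGF receptor *Kdr*, and the ETS factor *Etv2* directs these cells towards blood and vessels. *Tal1*, *Lmo2*, *Gata2* and *Gata1* encode parts of the transcription factor complexes of early blood cells, and *Runx1* is required when blood cells arise from endothelium. *Pecam1*, *Cdh5* and *Cd34* encode surface proteins of endothelial cells, and *Pecam1* is also expressed on undifferentiated mESCs.

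The guide strands of the 4 hairpins are shown because they define the knockdowns; they were read from the study's list of hairpins. Capitals mark the seed, bases 2 to 8.
Smarcc1.6: tGTAACTGcttcttcatcctgc
Smarcc1.7: tTGCTCATcttcttccttctga
Smarca4.4: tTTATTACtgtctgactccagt
Smarca4.6: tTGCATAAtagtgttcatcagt
Each guide was complementary over its 22 bases to the transcript of its target. In mm10, the Smarcc1.6 site lies at chr9:110177472-110177493 in coding exon 13 of 28 of *Smarcc1*, and the Smarcc1.7 site at chr9:110173911-110173932 in coding exon 11. The Smarca4.6 site lies at chr9:21670504-21670525 in coding exon 22 of 34 of *Smarca4*, and the Smarca4.4 site at chr9:21703327-21703348 in exon 34, within the 3′ UTR. *Smarcc1* stood at 23.7% to 60.1% of same-day Nons in its 8 knockdown libraries, and *Smarca4* at 21.6% to 55.3% in its own. Averaged over days, the differences were -1.33 on the log2 scale (SE 0.206, limma adjusted *p* = 0.00115) and -1.79 (SE 0.288, limma adjusted *p* = 0.00277). The *Smarca4* difference was -1.59 with an adjusted *p* of 0.0685 by limma when Smarca4.6 was left out, and -1.76 with an adjusted *p* of 0.0558 without day 7.

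Levels are given in rpm, a gene's read count relative to the size of its library but without regard to gene length, so that levels were compared between libraries and not between genes. Totals were 6829596 to 27472885 reads. The minimum came from Smarca4.4 at day 5, and all other libraries had at least 15717152 reads. A count of 3 reads, the smallest taken as different from none, corresponds to 0.109 to 0.439 rpm. Differences were tested with limma on log2 rpm over 13296 genes, those whose log2 rpm averaged 0 or more across the libraries, and an adjusted *p* under 0.05 was called. *Etv2*, *Tal1*, *Lmo2*, *Gata2*, *Pecam1* and *Cd34* passed this filter. *Kdr*, *Gata1*, *Runx1* and *Cdh5* did not, and their tests come from a fit of 18071 genes, in which the average had to reach -4 only. The average is over knockdown and Nons libraries, so a gene high in 1 group only could pass through that group. *Etv2* and *Tal1*, which averaged -0.67 and -0.30 in Nons, passed the filter at 0 through the knockdown libraries. In these bulk cultures, fewer cells that express a gene and less of its RNA per cell cannot be told apart.

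Defining markers of endothelial and blood cells were absent or near 0, while other genes of the same marker lists were read in every library. Among 10 endothelial markers, *Emcn* had 0 reads in all 20 libraries, *Cdh5* had at most 3 reads in 17 of them and *Erg* in 10, whereas *Pecam1* had 61 to 1507 reads and *Tek* 63 to 294. Of 8 markers of primitive erythroid cells, the embryonic globin genes *Hbb-bh1* and *Hba-x* had 0 reads in every library and *Hbb-y* at most 1, whereas *Epor* had 6 to 98 reads and *Klf1* up to 24. Of 6 leukocyte markers, *Ptprc*, which encodes the pan-leukocyte antigen CD45, had at most 2 reads. The others were higher, with 56 to 352 reads for *Csf1r*, 42 to 369 for *Coro1a*, 22 to 631 for *Laptm5*, 24 to 185 for *Itga2b* and 2 to 38 for *Vav1*. The 10 genes were therefore described as single genes, and no endothelial or blood cell population was assigned.

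*Kdr* (chr5:75932827-75978458, minus strand) was expressed on day 4 and nearly absent afterwards. On day 4, *Kdr* stood at 3.35 rpm in Nons, 5.57 and 4.44 rpm in Smarcc1.6 and Smarcc1.7, and 5.25 and 4.28 rpm in Smarca4.4 and Smarca4.6, which is 78 to 123 reads. On day 5, *Kdr* was at 0.304 rpm in Nons, 0.277 and 0.664 rpm with the *Smarcc1* hairpins and 0.293 and 0.170 rpm with the *Smarca4* hairpins. In the libraries of days 6 and 7 *Kdr* had between 0 and 14 reads, the 0 being Nons on day 6 and the 14 being Smarca4.4 on day 7. Every day 4 library was above every later library. The fall from day 4 to day 5 was -3.80 on the log2 scale (SE 0.641, limma adjusted *p* = 0.000626), and that from day 4 to day 7 was -4.20 (SE 0.641, adjusted *p* = 6.87e-05). Low counts make the later steps imprecise, and neither passed the test.

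*Etv2* (chr7:30633616-30635852, minus strand) held its level for a day longer and then fell. *Etv2* was at 2.58 rpm on day 4 in Nons, at 3.56 and 2.63 rpm in Smarcc1.6 and Smarcc1.7, and at 3.37 and 3.73 rpm in Smarca4.4 and Smarca4.6. The day 5 levels of *Etv2* were 1.97 rpm in Nons, 3.79 and 2.70 rpm with the *Smarcc1* hairpins and 3.37 and 4.67 rpm with the *Smarca4* hairpins. By day 6 *Etv2* had reached 0.636 rpm in Nons, 1.74 and 0.698 rpm with the *Smarcc1* hairpins and 0.979 and 0.826 rpm with the *Smarca4* hairpins. On day 7 *Etv2* had 0 reads in Nons and 6 to 9 reads in the 4 knockdown libraries, or 0.366 to 0.415 rpm. The step from day 4 to day 5 was -0.05 (SE 0.279, adjusted *p* = 0.888), and *Etv2* fell by 1.77 to day 6 (SE 0.279, adjusted *p* = 0.000508) and by a further 2.14 to day 7 (SE 0.279, adjusted *p* = 0.000366). All 5 series decreased from day 5 to day 7. The last step was -3.73 in Nons, where 0 reads were counted as 0.9 of a read, and -0.90 to -2.08 in the knockdown series. Its average thus rests in part on that lowest value, and ranged from -2.53 to -0.60 over the alternative fits.

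Among the partners in early blood transcription complexes, *Tal1* fell and *Lmo2* peaked on day 5. *Tal1* (chr4:115056426-115071755, plus strand), which encodes a basic helix-loop-helix factor, was at 2.18 rpm in Nons on day 4, at 1.69 and 1.68 rpm with the *Smarcc1* hairpins and at 1.88 and 1.21 rpm with the *Smarca4* hairpins. By day 7, *Tal1* was at 0.32 rpm in Nons, at 1.10 and 0.748 rpm with the *Smarcc1* hairpins and at 0.915 and 0.948 rpm with the *Smarca4* hairpins. Its decrease lay between days 5 and 6 (-1.53, SE 0.259, limma adjusted *p* = 0.000819), and all 5 series were lower on day 7 than on day 4 (-1.45, SE 0.259, adjusted *p* = 0.000293).

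*Lmo2* (chr2:103957986-103981878, plus strand) encodes the bridging protein of the TAL1 and GATA complexes. *Lmo2* was at 3.02 rpm on day 4 in Nons, 3.10 and 3.94 rpm with the *Smarcc1* hairpins and 1.88 and 2.80 rpm with the *Smarca4* hairpins. One day later, *Lmo2* had risen to 7.44 rpm in Nons, 12.3 and 10.2 rpm with the *Smarcc1* hairpins and 14.1 and 11.6 rpm with the *Smarca4* hairpins, the highest level of each of the 5 series. On day 7 *Lmo2* was back at 2.40 rpm in Nons, 5.49 and 4.43 rpm with the *Smarcc1* hairpins and 3.71 and 2.73 rpm with the *Smarca4* hairpins. The rise to day 5 was 1.82 (SE 0.189, limma adjusted *p* = 2.4e-05), followed by falls of -0.74 (SE 0.189, adjusted *p* = 0.0101) and -0.87 (SE 0.189, adjusted *p* = 0.00682). Day 7 differed from day 4 by 0.21 (SE 0.189, adjusted *p* = 0.344). *Lmo2* spans a gene on the other strand, *4931422A03Rik*, with which it shares no exon bases.

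*Gata2* and *Runx1*, factors of blood stem and progenitor cells, moved the other way. *Gata2* (chr6:88193891-88207030, plus strand) was at 1.38 rpm in Nons on day 4, 1.83 and 1.5 rpm with the *Smarcc1* hairpins and 2.52 and 1.48 rpm with the *Smarca4* hairpins. On day 7 *Gata2* was at 2.56 rpm in Nons, 5.81 and 6.24 rpm with the *Smarcc1* hairpins and 8.87 and 8.18 rpm with the *Smarca4* hairpins. It was highest on day 7 in all 5 series, and the rise from day 4 was 1.63 (SE 0.294, limma adjusted *p* = 0.000323).

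*Runx1* (chr16:92601467-92826066, minus strand) had 2 to 6 reads per library on day 4, or 0.0913 to 0.330 rpm. *Runx1* reached 1.92 rpm on day 7 in Nons, 2.93 and 2.31 rpm with the *Smarcc1* hairpins and 1.92 and 2.25 rpm with the *Smarca4* hairpins, which is 36 to 64 reads. Every day 7 library was above every library of days 4, 5 and 6, and the rise from day 4 was 3.34 (SE 0.455, limma adjusted *p* = 2.52e-05). Exon bases of *Runx1* are shared with the antisense gene *Gm26626*, and no source used here states whether strand was used in counting.

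*Gata1* (chrX:7959260-7978071, minus strand), the erythroid GATA factor, was low throughout, with 1 to 32 reads per library. In Nons, *Gata1* had 16 reads on day 4, 2 on days 5 and 6 and 5 on day 7. Averaged over targets, the level fell from day 4 to day 5 (-1.70, SE 0.418, limma adjusted *p* = 0.00705). This change was -0.05 in Smarcc1.6 and -1.22 to -2.52 in the other series, with 1 read on day 5 in Smarca4.4. It missed the threshold in 1 of 14 alternative fits. Day 7 differed from day 4 by -0.28 (SE 0.418, limma adjusted *p* = 0.584).

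*Pecam1* (chr11:106654217-106750628, minus strand), which encodes an adhesion protein of cell junctions, decreased in all 5 series, although to different extents. *Pecam1* stood at 54.9 rpm on day 4 in Nons, 64.1 and 65.4 rpm with the *Smarcc1* hairpins and 47.2 and 51.3 rpm with the *Smarca4* hairpins. On day 5, *Pecam1* was at 30.8 rpm in Nons, 62.7 and 70.1 rpm with the *Smarcc1* hairpins and 34.8 and 37.6 rpm with the *Smarca4* hairpins. Both *Smarcc1* hairpins were above the other 3 libraries on both days, and the gap was wider on day 5. Day 6 levels of *Pecam1* were 6.74 rpm in Nons, 31.7 and 39.4 rpm with the *Smarcc1* hairpins and 8.52 and 13.0 rpm with the *Smarca4* hairpins. At day 7, *Pecam1* was at 3.25 rpm in Nons, 30.0 and 22.8 rpm with the *Smarcc1* hairpins and 5.12 and 5.93 rpm with the *Smarca4* hairpins. Averaged over targets, *Pecam1* was lower on day 7 than on day 4 by -2.85 (SE 0.153, limma adjusted *p* = 1.0e-08). The first step, from day 4 to day 5, was -0.41 (SE 0.153, adjusted *p* = 0.0474) and missed the threshold in 12 of 16 alternative fits, among them those without any 1 of the 4 hairpins (-0.39 to -0.44) and the fit of 18071 genes (adjusted *p* = 0.0515).

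*Cd34* (chr1:194938821-194961292, plus strand) encodes a sialomucin of endothelial and blood progenitor cells. *Cd34* was at 3.89 rpm on day 4 in Nons, 2.05 and 1.72 rpm with the *Smarcc1* hairpins and 3.07 and 3.24 rpm with the *Smarca4* hairpins. It was highest on day 5 in each series, at 5.42 rpm in Nons, 4.66 and 3.94 rpm with the *Smarcc1* hairpins and 5.71 and 4.33 rpm with the *Smarca4* hairpins. By day 7 *Cd34* had reached 1.6 rpm in Nons, 2.10 and 2.12 rpm with the *Smarcc1* hairpins and 1.24 and 0.948 rpm with the *Smarca4* hairpins. The *Smarcc1* libraries were the lowest on day 4 and the highest on day 7. The change from day 4 to day 7 averaged -0.89 (SE 0.225, limma adjusted *p* = 0.00376), but it was 0.04 and 0.30 in Smarcc1.6 and Smarcc1.7 and -1.28 to -1.77 in the other 3 series. Exon bases of *Cd34* are shared with the antisense gene *Gm16897*.

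*Cdh5* (chr8:104101625-104144502, plus strand), which encodes VE-cadherin of endothelial junctions, had 0 to 8 reads per library and 44 reads in all 20 libraries together. The most, 8 reads each, were in Smarcc1.6 and Smarcc1.7 on day 7, where Nons had 1 read and the *Smarca4* hairpins 3 and 2. No step between days passed the test, the nearest being day 7 against day 6 (1.38, SE 0.476, limma adjusted *p* = 0.0543).

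**Figure D1:**
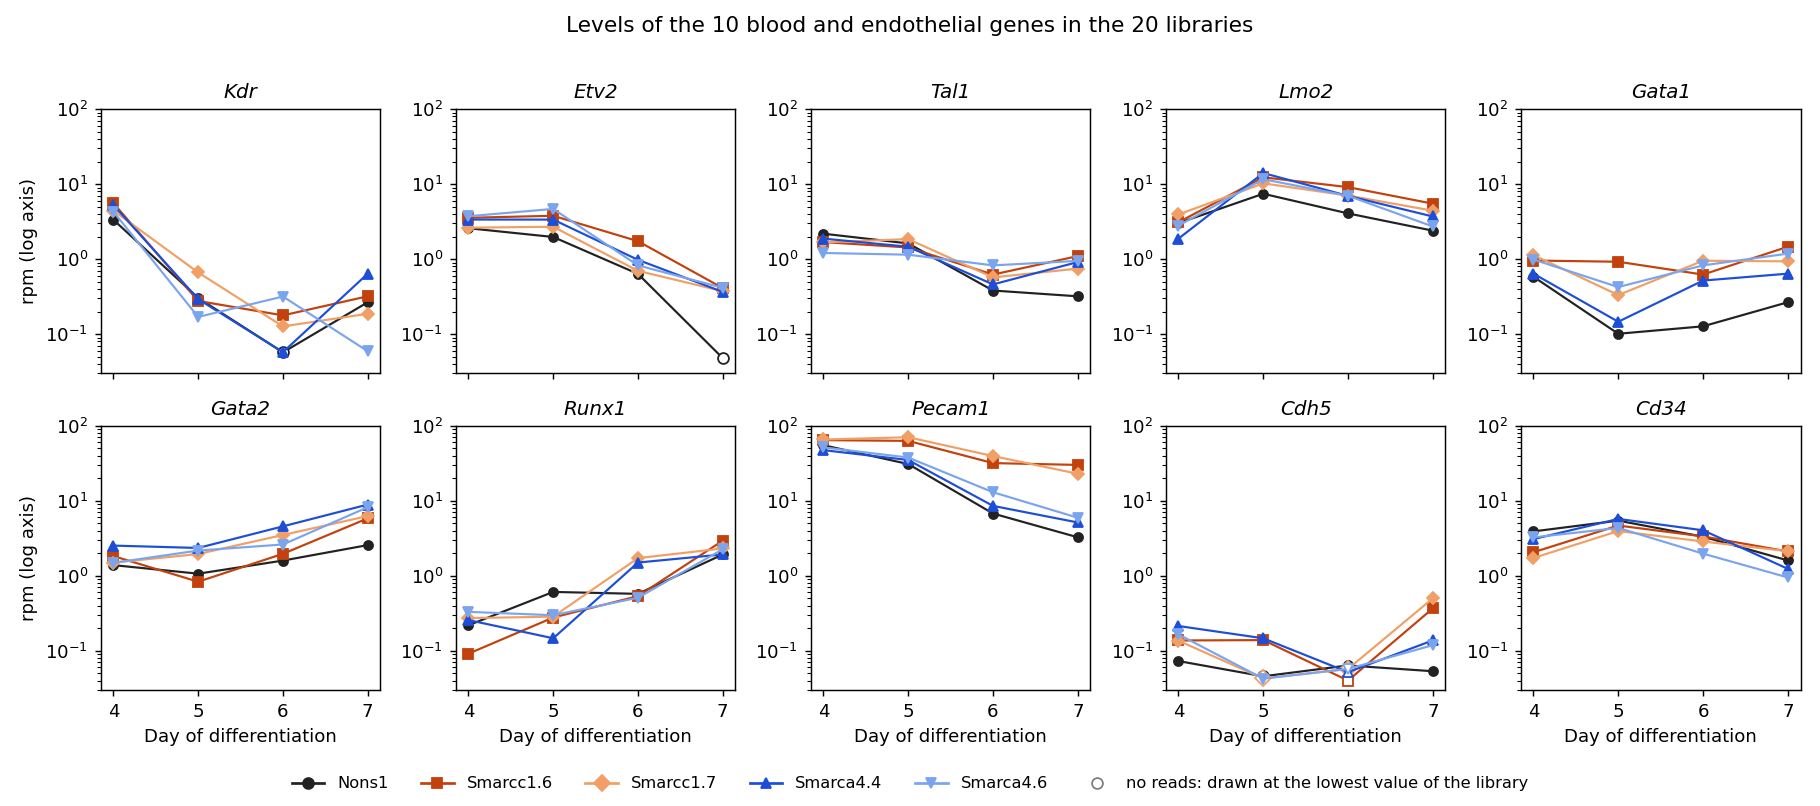
Level of each of the 10 genes in rpm on a log axis by day of differentiation, with 1 line per hairpin series: Nons, the *Smarcc1* hairpins and the *Smarca4* hairpins, 1 library per point. *Kdr* drops after day 4, *Lmo2* peaks on day 5, *Gata2* and *Runx1* rise to day 7, and *Pecam1* separates into a *Smarcc1* knockdown pair at 22.8 and 30.0 rpm and 3 lower libraries at 3.25 to 5.93 rpm on day 7.

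Counted together, 5 of the 6 genes that passed the filter differed between day 7 and day 4, *Gata2* upwards and *Etv2*, *Tal1*, *Pecam1* and, on average over targets, *Cd34* downwards. Of all 13296 genes tested, 64.5% differed in this comparison, so that most genes moved between these days. The median difference was -1.17 over the 6 genes and 0.08 over all genes tested. With the filter at -4, 7 of the 10 genes differed, 2 upwards and 5 downwards, beside 61.3% of genes tested. For the single steps, 3 of the 6 changed from day 4 to day 5 (38.7% of all genes), 5 from day 5 to day 6 (32.3%) and 5 from day 6 to day 7 (27.5%). With the filter at -4 these counts were 4 of 10 (35.4% of all genes), 5 (27.8%) and 6 (21.3%). All 5 genes that changed from day 5 to day 6 fell: *Etv2*, *Tal1*, *Lmo2*, *Pecam1* and *Cd34*.

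**Figure D2:**
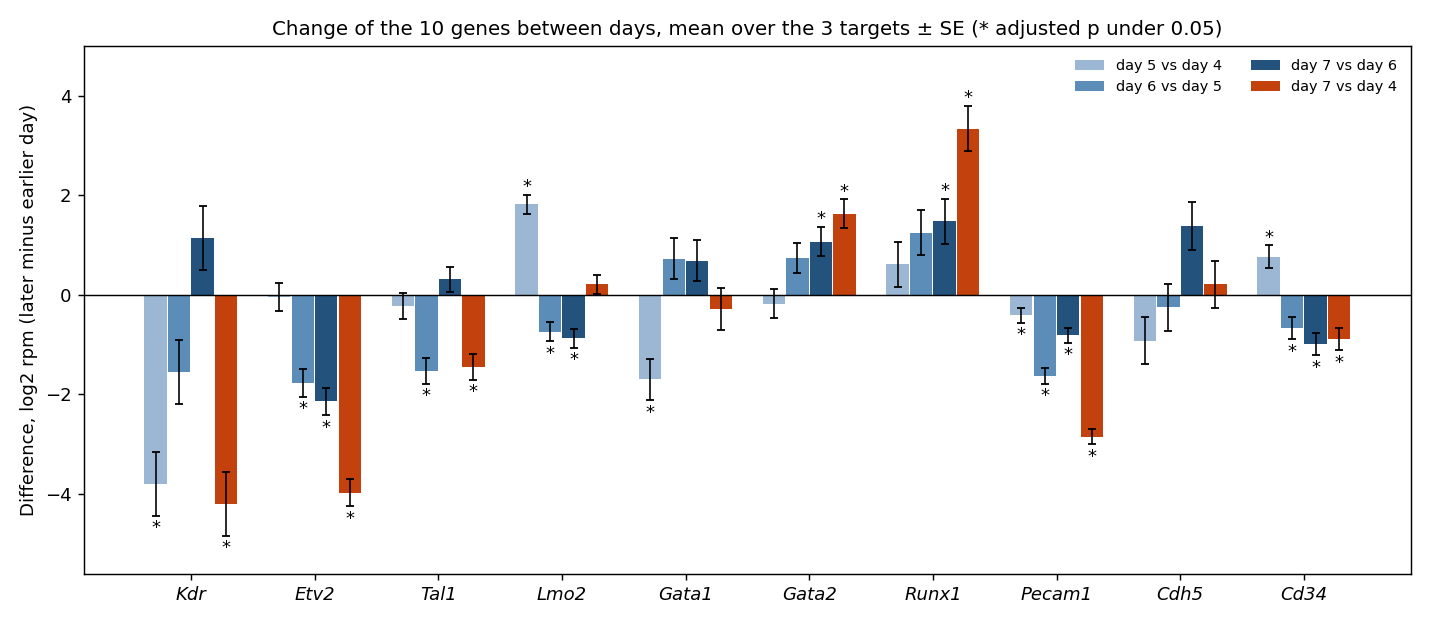
Difference in log2 rpm between days for each gene, as the mean over Nons, *Smarcc1* and *Smarca4* knockdown, with bars for each step and for day 7 against day 4, and error bars of 1 SE from limma. The fall of *Kdr* lies in the first step (-3.80), that of *Etv2* in the later steps (-1.77 and -2.14), and *Lmo2* reverses from a rise of 1.82 to falls of -0.74 and -0.87.

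The promoters of *Kdr*, *Etv2* and *Tal1* are shown because these 3 regulators all fell between days 4 and 7. They are RefSeq sequences of the GRCm38.p6 assembly, 300 bases long and ending 50 bases after the start of transcription, and 7 of the 10 genes had an entry, with 10 promoters in all. They were searched on both strands for AGATAA (bound by GATA factors), AGGAAG (bound by ETS factors) and CAGATG (an E-box of the kind bound by TAL1). Capitals mark the matches.
Kdr, chr5:75978406-75978705, minus strand: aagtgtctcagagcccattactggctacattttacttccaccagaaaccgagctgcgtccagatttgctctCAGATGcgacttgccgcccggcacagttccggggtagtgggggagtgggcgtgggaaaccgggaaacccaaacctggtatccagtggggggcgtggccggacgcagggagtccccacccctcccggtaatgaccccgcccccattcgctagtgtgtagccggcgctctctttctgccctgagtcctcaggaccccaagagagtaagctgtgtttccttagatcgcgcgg
Etv2, chr7:30635803-30636102, minus strand: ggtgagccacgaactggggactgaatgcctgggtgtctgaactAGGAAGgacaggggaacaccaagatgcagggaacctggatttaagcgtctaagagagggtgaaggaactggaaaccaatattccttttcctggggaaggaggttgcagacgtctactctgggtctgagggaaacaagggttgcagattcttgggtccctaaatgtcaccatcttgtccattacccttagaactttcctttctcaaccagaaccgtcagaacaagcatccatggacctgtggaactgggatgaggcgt
Tal1, chr4:115056176-115056475, plus strand: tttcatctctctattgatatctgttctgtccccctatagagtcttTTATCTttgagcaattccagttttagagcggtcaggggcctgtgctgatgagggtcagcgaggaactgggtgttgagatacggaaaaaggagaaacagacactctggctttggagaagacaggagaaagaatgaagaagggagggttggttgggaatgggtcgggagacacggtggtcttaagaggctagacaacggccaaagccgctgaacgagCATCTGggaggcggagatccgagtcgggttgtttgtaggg
The *Kdr* promoter held CAGATG at position -179 from the start, the *Etv2* promoter AGGAAG at -207, and this *Tal1* promoter AGATAA at -205 and CAGATG at 11, both read on the reverse strand. The downstream *Tal1* promoter held none of the 3. AGGAAG was also found in the promoters of *Cd34* and *Gata1* and in the distal promoter of *Runx1*, and none of the 3 motifs was found in both *Gata2* promoters or the proximal *Runx1* promoter. Among all 32851 promoters of this length, 11.2% held AGATAA, 35.4% AGGAAG and 17.2% CAGATG. These matches describe the letters only.

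With knockdown of *Smarcc1*, *Pecam1*, *Etv2* and *Lmo2* were higher than in Nons. A replicate block was also set for each hairpin series, the 4 days of a hairpin, with its correlation estimated. The titles do not say whether these days came from the same culture. With this block only *Pecam1* was still called (limma adjusted *p* = 0.000193, beside 0.0564 for *Etv2* and 0.134 for *Lmo2*). With the block 1 of the 6 genes that passed the filter was higher, and fewer of all genes tested were called as well (605 of 13296). Without it, 3 of the 6 were higher and 0 lower, where 10.6% of all genes tested differed and 7.54% were higher. Among these 3, *Etv2* averaged -0.67 in Nons, 0.52 in *Smarcc1* and 0.58 in *Smarca4* knockdown. It thus entered the count through the knockdown libraries, where it was high, although it was also called with the filter at -4. The median difference was 0.66 over the 6 genes and 0.06 over all genes. With the filter at -4, *Gata1* was added, giving 4 of 10 genes beside 11.4% of all genes tested. *Etv2*, *Lmo2* and *Pecam1* were higher in all 8 *Smarcc1* knockdown libraries than in Nons of the same day, as were 8.69% of all genes tested.

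With knockdown of *Smarca4*, *Etv2* and *Gata2* were higher than in Nons, but with the block neither was called (limma adjusted *p* = 0.0764 and 0.149). With the block 0 of the 6 genes were called, and fewer of all genes tested were called as well (258 of 13296). Without it, 2 of the 6 were higher and 0 lower, where 6.71% of all genes tested differed and 4.75% were higher. Here too *Etv2* entered the count through the knockdown libraries. The median difference was 0.38 over the 6 genes beside 0.06 over all. With the filter at -4, *Gata1* was again added (adjusted *p* = 0.139 with the block), giving 3 of 10 genes beside 5.79% of all genes. *Etv2* and *Gata2* were higher in all 8 *Smarca4* knockdown libraries, as were 9.85% of all genes tested. Both knockdowns were compared with the same 4 Nons libraries, so the 2 comparisons are not independent.

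*Pecam1* departed from Nons progressively in *Smarcc1* knockdown. Its fold over same-day Nons on days 4 to 7 was 1.17, 2.04, 4.70 and 9.22 in Smarcc1.6, and 1.19, 2.28, 5.84 and 7.02 in Smarcc1.7. The corresponding folds were 0.860, 1.13, 1.26 and 1.58 in Smarca4.4 and 0.935, 1.22, 1.92 and 1.82 in Smarca4.6. Both *Smarcc1* hairpins therefore lay above both *Smarca4* hairpins on every day. Averaged over days, *Smarcc1* knockdown exceeded Nons by 1.69 (SE 0.140, limma adjusted *p* = 1.2e-05), *Smarca4* knockdown exceeded Nons by 0.37 (SE 0.140, adjusted *p* = 0.157), and *Smarcc1* exceeded *Smarca4* knockdown by 1.32 (SE 0.114, adjusted *p* = 0.000139). On single days, *Smarcc1* knockdown was above Nons by 2.39 on day 6 (adjusted *p* = 0.000583) and 3.01 on day 7 (adjusted *p* = 8.74e-05). *Pecam1* was the only 1 of the 6 genes called in the comparison of *Smarcc1* with *Smarca4* knockdown, where 4.09% of all genes tested differed.

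The slope of *Pecam1* over days was -1.44 log2 units per day in Nons, -0.48 in *Smarcc1* knockdown and -1.13 in *Smarca4* knockdown. The *Smarcc1* slope was less steep than that of Nons by 0.96 per day (SE 0.125, limma adjusted *p* = 0.00466), and than that of *Smarca4* knockdown by 0.64 (SE 0.102, adjusted *p* = 0.0465). Across all genes tested, 0.94% differed in slope between *Smarcc1* knockdown and Nons, and 0.12% between the 2 knockdowns. The slope in *Smarca4* knockdown differed from Nons by 0.32 (SE 0.125, adjusted *p* = 0.779), and none of the 6 genes was called by limma in that comparison, where 18 genes (0.135%) were called and 692 had an unadjusted *p* under 0.05. Without Smarcc1.6 or Smarcc1.7 the slope difference from Nons was 0.90 or 1.01, with adjusted *p*-values of 0.127 and 0.0601. That between the knockdowns also missed the threshold in the fit of 18071 genes (adjusted *p* = 0.0623) and without any 1 of the 4 hairpins.

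Of 9 pluripotent markers, 6 were higher than in Nons in *Smarcc1* knockdown (7.54% of all genes) and 5 in *Smarca4* knockdown (4.75%), and 0 were lower in either. Between days 4 and 7 *Dppa3* rose and 7 fell, beside 64.5% of all genes that differed. *Klf2* was higher by 2.12 (SE 0.168, limma adjusted *p* = 8.74e-06) and *Esrrb* by 1.84 (SE 0.188, adjusted *p* = 6.9e-05) in *Smarcc1* knockdown. In *Smarca4* knockdown they were higher by 1.65 (SE 0.168, limma adjusted *p* = 0.000263) and 1.24 (SE 0.188, adjusted *p* = 0.00181). The 9 markers summed to 689.7 rpm in Nons, 835.3 and 1164 rpm in *Smarcc1* knockdown and 550.1 and 562.3 rpm in *Smarca4* knockdown on day 7. With the *Smarcc1* hairpins these sums lay on both sides of Nons on days 5 and 6. They were 2491 and 3556 rpm against 2823 rpm on day 5, and 1666 and 2698 rpm against 2372 rpm on day 6. With the *Smarca4* hairpins the sums were 2823 and 3229 rpm on day 5, and 1561 and 1574 rpm, both below Nons, on day 6. *Tdgf1* and *Pou5f1* had the highest medians of the 9 markers (963.5 and 921.5 rpm) and so weigh most in the sums. Neither was called in either knockdown, and in *Smarca4* knockdown both had an unadjusted *p* under 0.05 by limma. No pluripotent marker was at 0 in any library, the lowest count being 42 reads for *Klf2*. The 10 endothelial markers summed to 13.48 rpm in Nons, 43.72 and 51.29 rpm in *Smarcc1* knockdown and 17.2 and 18.67 rpm in *Smarca4* knockdown on day 7. Without *Pecam1* these sums were 10.23 rpm, 20.89 and 21.32 rpm, and 12.08 and 12.74 rpm. The part of undifferentiated cells in the level of *Pecam1* was not tested.

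**Figure D3:**
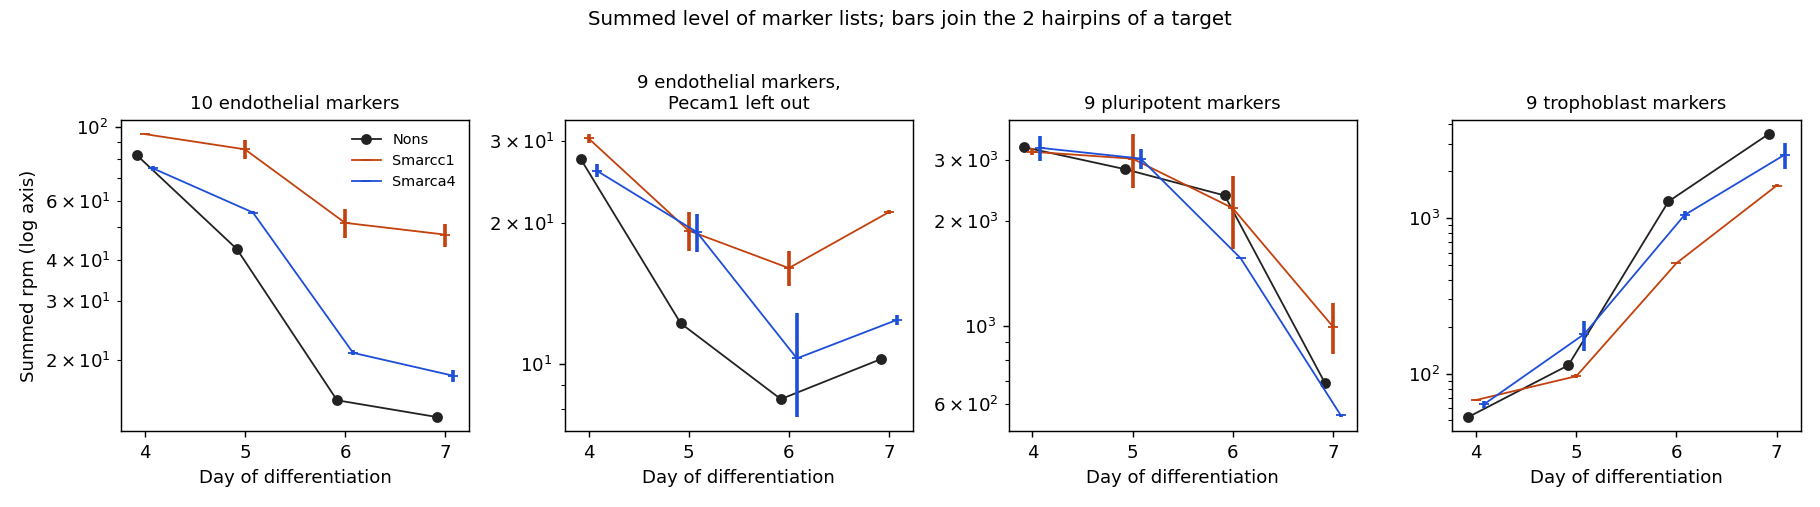
Summed rpm on a log axis by day for 10 endothelial markers, the same without *Pecam1*, 9 pluripotent markers and 9 trophoblast markers, with the Nons library as a point and a vertical bar joining the 2 hairpins of each knockdown. On day 7 the *Smarcc1* knockdown bars lie above Nons for the endothelial and pluripotent lists and below it for the trophoblast list (1588 and 1649 rpm against 3472 rpm).

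*Etv2* was above same-day Nons in 8 of 8 libraries of each knockdown. Averaged over days, the difference was 1.19 in *Smarcc1* knockdown (SE 0.256, limma adjusted *p* = 0.00947) and 1.25 in *Smarca4* knockdown (SE 0.256, adjusted *p* = 0.0120). With a replicate block for the hairpin series, the adjusted *p*-values were 0.0564 and 0.0764. On day 7, where *Etv2* had 0 reads in Nons, the knockdown libraries were at least 2.58, 2.34, 2.29 and 2.60-fold higher (Smarcc1.6, Smarcc1.7, Smarca4.4 and Smarca4.6) than the level of 3 reads in that Nons library. Without day 7 the differences were 0.58 (SE 0.312, adjusted *p* = 0.536) and 0.65 (SE 0.312, adjusted *p* = 0.507), so that neither call was kept without that day. Without Smarcc1.6 the first difference was 0.89 (limma adjusted *p* = 0.0725), and without Smarca4.4 or Smarca4.6 the second was 1.32 and 1.18 (adjusted *p* = 0.0921 and 0.141).

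Among single days, *Pecam1* was the only gene of the 6 called on day 6 in *Smarcc1* knockdown, beside 2.84% of all genes tested. On day 7 *Etv2* is left out, since Nons had 0 reads. Of the other 5, *Pecam1* was called in *Smarcc1* knockdown (4.35% of all genes) and 0 in *Smarca4* knockdown (1.59%), where *Tal1*, *Gata2* and *Pecam1* had an unadjusted *p* under 0.05 by limma. By limma, 0 of the 6 were called on day 4 or day 5 in either knockdown. Hardly any gene was called on these days. Of all 13296 tested, 0 were called on day 4 in either knockdown, and 19 in *Smarcc1* and 0 in *Smarca4* knockdown on day 5. Members with an unadjusted *p* under 0.05 were *Cd34* on day 4 and *Pecam1* on day 5 in *Smarcc1* knockdown and *Lmo2* on day 5 in *Smarca4* knockdown.

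*Lmo2* was higher in 8 of 8 *Smarcc1* knockdown libraries, by 0.71 over days (SE 0.174, limma adjusted *p* = 0.0197). The adjusted *p* was 0.134 with the replicate block, and 0.0946 and 0.0718 without Smarcc1.6 and Smarcc1.7, and the call was also lost without day 6 (0.62, adjusted *p* = 0.125) or day 7 (0.59, adjusted *p* = 0.210). In *Smarca4* knockdown *Lmo2* was above Nons in 6 of 8 libraries, with both day 4 libraries below it, and the difference was 0.39 (SE 0.174, limma adjusted *p* = 0.235). *Tal1* differed by 0.44 in *Smarcc1* knockdown (SE 0.238, adjusted *p* = 0.298) and by 0.34 in *Smarca4* knockdown (SE 0.238, adjusted *p* = 0.476). All 4 knockdown libraries were below Nons for *Tal1* on day 4 and above it on days 6 and 7.

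*Gata2* was higher in 8 of 8 *Smarca4* knockdown libraries, by 1.10 (SE 0.270, limma adjusted *p* = 0.0285), and in 7 of 8 *Smarcc1* knockdown libraries, by 0.62 (SE 0.270, adjusted *p* = 0.193). With the replicate block the *Smarca4* difference had an adjusted *p* of 0.149, and without Smarca4.4 or Smarca4.6 it was 0.88 and 1.33 with adjusted *p*-values of 0.226 and 0.0992. It also missed the threshold without day 4, 6 or 7 (adjusted *p* = 0.0511, 0.0611 and 0.366). The *Gata2* difference between the knockdowns was -0.49 (*Smarcc1* minus *Smarca4*, SE 0.221, adjusted *p* = 0.298). *Gata2* is a trophoblast as well as a blood factor. Of 9 trophoblast markers, 7 were tested. *Hand1* and *Tfap2c* were higher and 0 lower in *Smarca4* knockdown, beside 4.75% of all genes higher. In *Smarcc1* knockdown *Tfap2c* was higher and *Krt7*, *Krt8* and *Krt18* lower, beside 7.54% of all genes higher and 409 of 13296 lower. The summed level of all 9 markers rose from 52.52 to 3472 rpm in Nons and was 2081 and 3033 rpm in *Smarca4* knockdown on day 7. *Cdx2* and *Elf5* had at most 28 and 7 reads. The part of trophoblast cells in the rise of *Gata2* was not tested.

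*Gata1* was above same-day Nons in 8 of 8 libraries of each knockdown, and had 2 reads in Nons on days 5 and 6. On day 7, *Gata1* had 32 and 15 reads with the *Smarcc1* hairpins and 14 and 20 reads with the *Smarca4* hairpins, beside 5 in Nons. The differences over days were 2.01 in *Smarcc1* knockdown (SE 0.384, limma adjusted *p* = 0.00384) and 1.46 in *Smarca4* knockdown (SE 0.384, adjusted *p* = 0.0399). With the replicate block the adjusted *p*-values were 0.0192 and 0.139, and after all libraries were thinned to the depth of the smallest they were 0.123 and 0.278. The *Smarca4* difference missed the threshold in 13 of 18 alternative fits. It was 0.99 without Smarca4.6 (adjusted *p* = 0.290), 1.46 without Smarcc1.6 or Smarcc1.7 (adjusted *p* = 0.0707 and 0.0687), and 1.79, 1.15 and 1.37 without day 4, 6 or 7 (adjusted *p* = 0.0674, 0.244 and 0.245).

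*Kdr*, *Runx1*, *Cdh5* and *Cd34* passed the test in neither knockdown. *Kdr* differed from Nons by 0.58 and 0.21 (*Smarcc1* and *Smarca4* knockdown, SE 0.589), *Runx1* by -0.10 in both (SE 0.418), and *Cd34* by -0.27 and -0.31 (SE 0.206). *Cdh5* differed by 1.06 and 0.80 (SE 0.437) at 0 to 8 reads, and without day 5 the first was 1.17 (limma adjusted *p* = 0.0469). *Cd34* was below Nons in 5 of 8 *Smarcc1* and 6 of 8 *Smarca4* knockdown libraries. At these standard errors a change of 1 log2 unit in *Kdr*, *Runx1* or *Cdh5* could be missed, and the power for these genes was not computed.

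**Figure D4:**
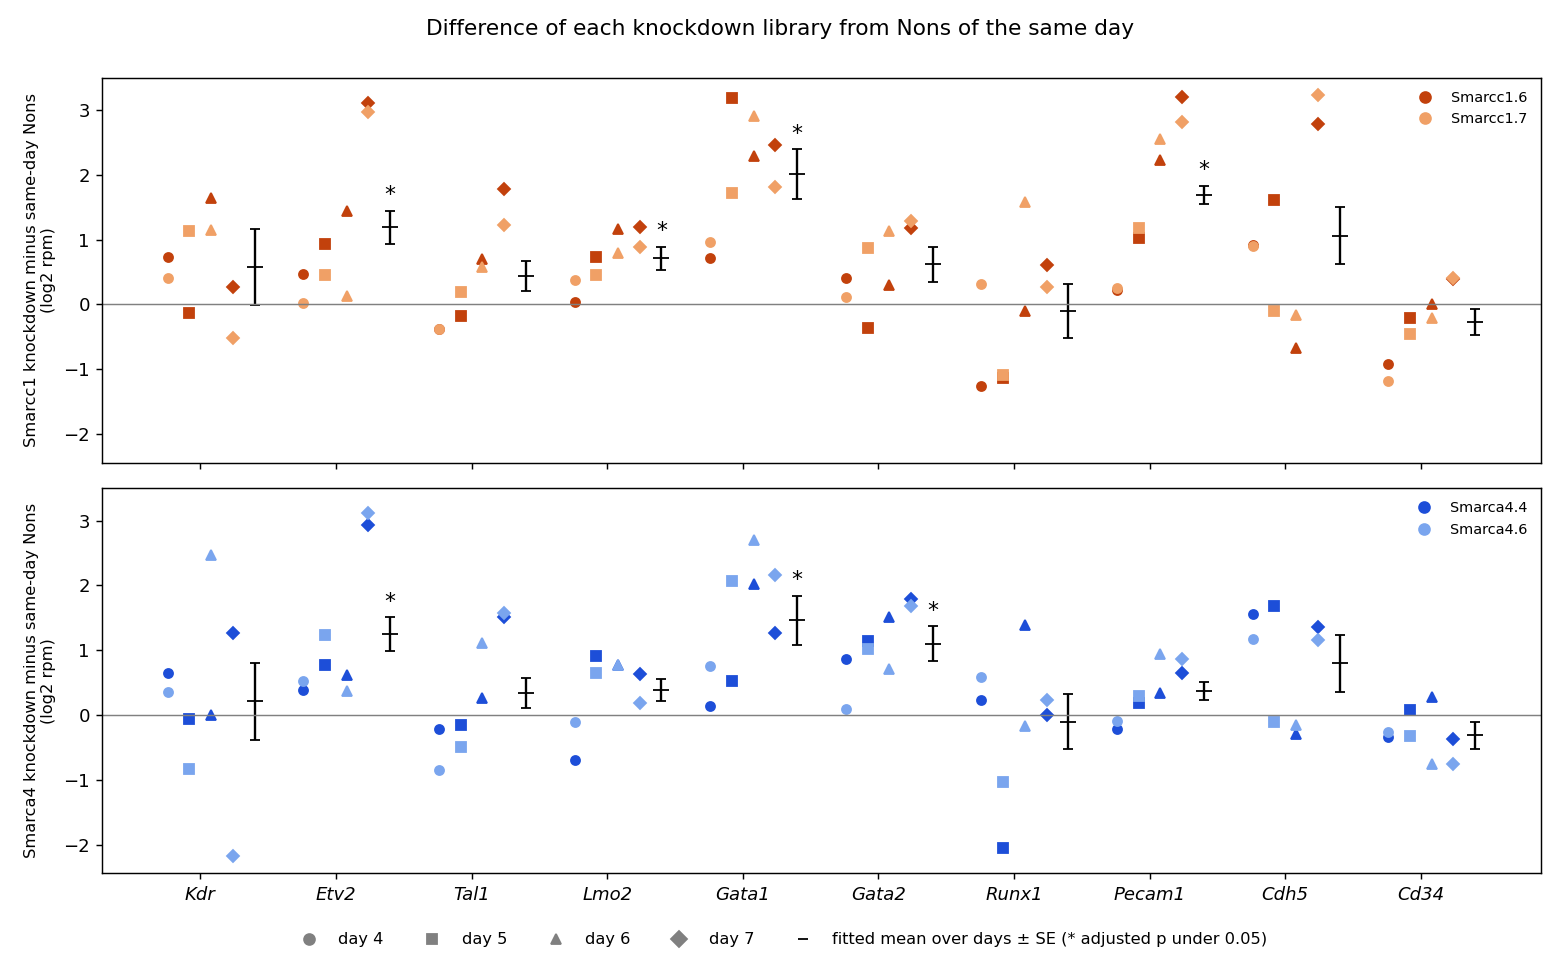
Difference in log2 rpm between each knockdown library (shape for the day, colour for the hairpin) and Nons of the same day, with *Smarcc1* knockdown above and *Smarca4* knockdown below, black marks for the mean over days with 1 SE from limma, and stars for an adjusted *p* under 0.05. All 8 *Smarcc1* points of *Pecam1* lie above 0 with day 7 highest, while the *Etv2* points of day 7 and the *Kdr* points of day 6 are set against a Nons library with 0 reads, drawn at its lowest value.

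Other genes of these lineages were read from lists by role. Calls of list and marker genes, here and elsewhere, are given only from the fit without the replicate block. Of 24 further endothelial genes, 16 were tested. In *Smarcc1* knockdown 6 of the 16 were higher and 0 lower (*Esam*, *Sox18*, *Vwf*, *Plvap*, *Cldn5* and *Mmrn2*), with a list median of 0.35, beside 7.54% of all genes higher and a median of 0.06. In *Smarca4* knockdown 4 were higher and 0 lower (*Esam*, *Sox18*, *Vwf* and *Mmrn2*), with a list median of 0.21, beside 4.75% higher and 0.06. *Sox18*, *Vwf*, *Esam*, *Mmrn2* and *Cldn5* averaged -1.66, -0.67, -0.11, -0.08 and -0.03 in Nons. They passed the filter at 0 through knockdown libraries, *Sox18* through those of *Smarcc1* (1.15, beside -0.30 in *Smarca4* knockdown). The counts of genes higher are therefore not independent of the filter. *Sox18*, a transcription factor of vessel development, was higher by 2.81 (SE 0.244, limma adjusted *p* = 1.75e-05) and by 1.35 (SE 0.244, adjusted *p* = 0.0055) in the 2 knockdowns, and had 3 to 88 reads per library. *Mmrn2*, an extracellular protein of vessels, was higher by 1.77 (SE 0.199, limma adjusted *p* = 0.000126) and 1.52 (SE 0.199, adjusted *p* = 0.000753). *Cldn5*, a tight junction protein, was higher by 1.44 in *Smarcc1* knockdown (SE 0.253, limma adjusted *p* = 0.00271). *Vwf*, which encodes von Willebrand factor, was higher by 1.11 in *Smarca4* knockdown (SE 0.279, limma adjusted *p* = 0.0317). *Sox18* and *Cldn5* were also higher in *Smarcc1* than in *Smarca4* knockdown, by 1.46 (SE 0.200, limma adjusted *p* = 0.0016) and 1.25 (SE 0.207, adjusted *p* = 0.00563).

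Between days 4 and 7, 6 of the 16 were higher and 5 lower, a share near the 64.5% of all genes that differed. *Ets1*, an ETS factor expressed in many cell types, rose by 4.67 (SE 0.175, limma adjusted *p* = 7.65e-10), and *Flt4*, a receptor of VEGF-C, by 3.27 (SE 0.376, adjusted *p* = 7.08e-06). *Cldn5* fell by 3.41 (SE 0.276, limma adjusted *p* = 3.09e-07). Of 9 measured VEGF ligands and receptors, 8 were tested and 0 differed between either knockdown and Nons by limma (0 and 1 at an unadjusted *p* under 0.05, the latter *Nrp2* in *Smarca4* knockdown), while 5 rose and 2 fell between days 4 and 7, beside the same 64.5%. *Pgf*, which encodes placental growth factor, rose by 4.84 (SE 0.330, limma adjusted *p* = 6.99e-08) and *Vegfa* by 3.29 (SE 0.257, adjusted *p* = 2.3e-07). *Flt1* and *Flt4* stand in both lists. Of the other ligands, *Vegfb* rose and *Vegfc* fell.

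Of 18 measured blood genes, 8 were tested. *Kit*, the receptor of stem cell factor, was higher by 1.62 in *Smarcc1* knockdown (SE 0.174, limma adjusted *p* = 8.32e-05) and higher there than in *Smarca4* knockdown by 1.01 (SE 0.142, adjusted *p* = 0.00181). *Hhex*, a homeobox factor of endoderm and blood, was higher by 0.85 in *Smarcc1* knockdown (SE 0.201, limma adjusted *p* = 0.0158). In *Smarca4* knockdown 0 of the 8 were called by limma, and *Itga2b*, *Kit*, *Hhex* and *Coro1a* had an unadjusted *p* under 0.05. Between days 4 and 7, *Myb* fell by 2.65 (SE 0.249, limma adjusted *p* = 1.19e-06), *Itga2b* rose by 2.30 (SE 0.203, adjusted *p* = 6.78e-07), and in all 2 of the 8 rose and 4 fell, beside 64.5% of all genes. *Ptprc*, *Gfi1* and *Pf4* had at most 3 reads in every library. Of 16 measured erythroid genes only *Epor*, the erythropoietin receptor, was tested, and it had an unadjusted *p* above 0.05 in either knockdown averaged over days and between days 4 and 7. In slope over days *Epor* was not called, with an unadjusted *p* under 0.05 for *Smarcc1* knockdown against Nons and against *Smarca4* knockdown. Another 7, including the globin genes *Hbb-bh1*, *Hbb-y*, *Hba-x*, *Hba-a1*, *Hbb-b1* and *Hbb-b2*, had at most 3 reads in every library.

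Of 9 measured partners of these transcription factors, 7 were tested. *Ldb1*, which joins LMO2 to other complexes, was higher by 0.52 in *Smarcc1* knockdown (SE 0.155, limma adjusted *p* = 0.0492) and fell by 0.74 from day 4 to day 7 (SE 0.169, adjusted *p* = 0.0018). *Zfpm1*, the cofactor of GATA1, which is also in the blood list, rose by 3.03 over the days (SE 0.419, limma adjusted *p* = 3.57e-05). *Cbfb*, the partner of RUNX1, fell by 0.86 (SE 0.159, limma adjusted *p* = 0.000374), whereas *Runx1* itself rose. *Lmo4* was lower in *Smarcc1* than in *Smarca4* knockdown by -0.62 (SE 0.113, limma adjusted *p* = 0.00967).

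Other cell types were read from marker lists in the same way. Of all genes tested, 7.54% were higher in *Smarcc1* and 4.75% in *Smarca4* knockdown than in Nons, and 409 and 261 of 13296 were lower. Of 4 tested leukocyte markers, 0 differed between either knockdown and Nons by limma, while *Itga2b* had an unadjusted *p* under 0.05 in both knockdowns and *Coro1a* in *Smarca4* knockdown. The summed level of all 6 measured leukocyte markers was 21.35 to 37.89 rpm over all libraries. Of 3 tested mesoderm markers, *Pdgfra* was higher in *Smarcc1* knockdown and *Hand1*, which is also in the trophoblast list, in *Smarca4* knockdown. Of 4 tested endoderm markers, *Gata4* and *Cubn* were higher in *Smarcc1* knockdown and *Gata4* in *Smarca4* knockdown. *Gata4* averaged -0.20 in Nons and passed the filter through the knockdown libraries. Of 5 tested neural markers, *Sox1* was higher in both. Of 4 tested fibroblast or feeder markers, *Dcn* was lower in both, and *Col1a1* was higher in *Smarcc1* knockdown. *Dcn* averaged 2.13 in Nons, -0.82 in *Smarcc1* and -0.24 in *Smarca4* knockdown, and passed the filter through Nons.

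The genes whose pattern was most like each tested member were found by Pearson's *r* of log2 rpm over the 12 means of target and day, a description across points that share libraries. *Pecam1* was closest to *Lgals7* (*r* = 0.988), *Arhgap30* and *Slc29a1*, *Etv2* to *Fbp1* (*r* = 0.983), *Gc* and *Enpp2*, and *Tal1* to *Magel2* (*r* = 0.978), *Zfp40* and *Morc2a*. *Lmo2* was closest to *Epx* (*r* = 0.957), *C330046G03Rik* and *Hmgn5*, *Gata2* to *Slc45a3* (*r* = 0.981), *Kdelr1* and *Mgat1*, and *Cd34* to *Cxcl12* (*r* = 0.985), *Urod* and *Mccc2*. Among the members, *Pecam1* and *Etv2* were the most alike (*r* = 0.863), and *Gata2* ran against *Cd34* (*r* = -0.739).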

How the data were processed

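mRNA levels of mESCs (male, C57/Bl6) during differentiation were compared with groups, hairpins and days taken from the sample titles. Single-end 75 bp reads were trimmed by the authors and, per the labels' processing notes, aligned to mm10 with HISAT2. They deposited a table of log2 rpm values per gene made in SeqMonk, and the annotation release and the use of strand are not given in the sources used here. In each library the lowest value equals 0.9 of a read, and on this basis 100% of the values under 1000 reads came out whole within 0.05 of a read, which gave the reads and the total of each library. Counting error limits genes of few reads.

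The 10 genes, the gene lists and the markers were chosen with earlier results of these data known, and 1 listed gene is not reported here. limma 3.58.1 (R 4.3.3) was run with a trended prior on 13296 genes whose log2 rpm averaged 0 or more, using 1 coefficient per target and day (12 in all), Benjamini-Hochberg adjustment and an adjusted *p* under 0.05. Residual variation (8 degrees of freedom) is that between 2 hairpins to the same gene, and Nons was assumed to vary alike. Contrasts were averaged over days or targets, and slopes are linear over days 4 to 7. Named list genes are the up to 3 with the greatest change per comparison among those past the threshold in the same direction in both hairpins, or in all 5 series for day, and the genes named as nearest are the 3 with the highest correlation. The libraries of a hairpin pair were not copies of each other, with a chi-square per gene of 2.70 to 110. Tested on simulated data for *Smarcc1* knockdown against Nons, the fit called 64.5% of 200 genes given a log2 change of 1 and 13 unchanged genes among the 13296.

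The alternatives were other filters, 1 added to rpm, median centring, quantile normalization, setting all libraries to the same lowest value, limma-voom with the recovered reads, an additive model, the replicate block of hairpin series, and leaving out each hairpin, each day or the smallest library. Thinning of all libraries to the smallest and combining each alternative with the filter at -4 were chosen after seeing the data.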

Additional observations from a re-analysis of the deposited data

Results flagged for a closer look

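The slope of *Pecam1* over days 4 to 7 differed between groups under a test of the difference itself. It was less steep in *Smarcc1* knockdown than in Nons by 0.96 log2 units per day (limma adjusted *p* = 0.00466), with both hairpins above Nons on each of the 4 days. It missed the threshold without Smarcc1.6 or Smarcc1.7 (adjusted *p* = 0.127 and 0.0601). It was less steep in *Smarcc1* than in *Smarca4* knockdown by 0.64 per day (limma adjusted *p* = 0.0465), and this missed the threshold in 13 of 15 alternatives, with adjusted *p*-values up to 1.00. No group of libraries held 4 to 10 samples of the same target and day, and outlying single libraries were not tested.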

How the results depend on the processing

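Counts in this paragraph are of the 6 genes that passed the filter. Counts over all genes follow in the next paragraph for some settings only, so these counts do not show how the members compare with other genes. The higher level of *Pecam1* in *Smarcc1* knockdown than in Nons and in *Smarca4* knockdown passed the threshold in all 20 alternatives run (1.24 to 2.17 and 1.01 to 1.62), and the changes of *Kdr*, *Etv2*, *Tal1*, *Gata2*, *Runx1*, *Pecam1* and *Cd34* between days 4 and 7 did so in every alternative in which they were tested. The other knockdown calls depended on the setting. Against Nons, *Smarcc1* knockdown had 3 genes called, and 1 with a mean of at least 10 rpm, with quantile normalization, with the replicate block, without day 7 and with thinning. *Smarca4* knockdown had 2, which became 0 with at least 10 rpm, the block, no day 7 or thinning, and 1 with log2(rpm + 1), quantile normalization, a common lowest value, or without day 4 or day 6. With at least 10 rpm only *Pecam1* was tested, and 1 gene was called between days 7 and 4 and in each step; from day 4 to 5 the count was also 1 with quantile normalization and thinning. For the slope of *Smarcc1* knockdown against Nons the count was 2 with limma-voom and with the block. For that against *Smarca4* knockdown it was 0 with the filter at -4, at least 10 rpm, no filter, log2(rpm + 1), median centring, quantile normalization, limma-voom, thinning or without the smallest library. Leaving out each hairpin gave 1 to 3 genes in *Smarcc1* and 0 to 2 in *Smarca4* knockdown against Nons, 1 to 2 from day 4 to 5, 4 to 5 from day 5 to 6, 3 to 5 from day 6 to 7, 0 to 1 for the slope against Nons and 0 for that against *Smarca4* knockdown.

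Over all genes, 1412 and 892 were called against Nons in *Smarcc1* and *Smarca4* knockdown, 605 and 258 with the replicate block, 579 and 324 with at least 10 rpm, and 379 and 132 without day 7. The count was 793 for *Smarcc1* without day 6, and 497 and 431 for *Smarca4* without day 4 and day 6. Without a hairpin the lowest counts were 843 and 277. Some differences that had not passed the test changed sign. *Tal1* was at -0.36 and -0.13 in *Smarcc1* and *Smarca4* knockdown with quantile normalization, and at -0.06 in the latter without day 7. *Kdr* in *Smarca4* knockdown was at -0.05 without Smarca4.4 and -0.13 without day 6. *Runx1* in *Smarcc1* knockdown was at 0.08 with log2(rpm + 1), 0.27 without Smarcc1.6, 0.02 without day 4, 0.24 without day 5 and 0.07 with thinning. In *Smarca4* knockdown *Runx1* was at 0.02 with log2(rpm + 1), 0.38 without day 5 and 0.03 without the smallest library. The cause was not tested for any of these.

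The numbers in the hairpin names were not used to pair samples. The deviations of Smarcc1.6 and Smarca4.6 from their target means correlated at 0.024, 0.104, 0.589 and -0.321 on days 4 to 7, across 13296 genes. These values differed in size and sign between days. The fit has no term for such shared deviation, and its cause was not tested. The block used was the hairpin series, with an estimated correlation of 0.217 between libraries of a series. Slopes could not be had from the additive model, and differences between days were not recomputed without a day. The recovered depth limits *Kdr* after day 4, *Gata1* and *Cdh5*, at 32 reads or fewer.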
